A study of Mus musculus with 12 samples.

Results

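The 34 genes described here make, sense, take up, store or export cholesterol: 20 code for enzymes of its synthesis, 5 for the sterol-sensing machinery, and 9 for proteins of uptake, transport, storage and export. They were chosen by function, as a fixed list of gene symbols, and their data are the rows of the peak lists whose nearest gene carries one of these symbols. Of the 34, 33 appear in at least 1 list (Stard4, a carrier of cholesterol between membranes, in none), among 14223 protein-coding genes named there. Of the 269580 peaks in the 6 lists, 503 were assigned to them.

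H4K8ac, acetylation of lysine 8 on the tail of histone H4, was mapped by ChIP-seq (sequencing of immunoprecipitated chromatin) in oligodendrocyte progenitor cells (OPCs), which divide and give rise to the myelin-forming oligodendrocytes of the brain. They were obtained by sorting forebrain cells of PdgfrαH2BEGFP mice, which carry a nuclear green fluorescent protein reporter of Pdgfra, at postnatal day 5 (neonatal) or 60 (adult). All groups share this genotype, and sorting by the reporter takes any forebrain cell in which it is on or in which the stable protein persists. Each age has 3 H4K8ac libraries, from replicates the labels call biological, and values below are given in the order of replicates 1, 2 and 3. The 6 input libraries were not analysed here.

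Cells build cholesterol from acetyl-CoA, first through the mevalonate steps to farnesyl diphosphate and then through squalene and lanosterol. SREBP transcription factors, held in the endoplasmic reticulum by SCAP and the INSIG proteins while sterol is plentiful, switch the enzyme genes on when sterol falls, whereas the nuclear receptor LXR, activated by oxysterols, switches on export genes such as Abca1 and Abcg1. Myelin is rich in cholesterol, most of which is made inside the brain because circulating lipoproteins do not cross the blood-brain barrier. H4K8ac is a mark of active promoters and enhancers.

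The promoters of 5 genes are shown because the results below turn on these genes: Hmgcs1, Insig1, Abca1, the inner start of Srebf1, and Ebp. Each run is the 250 bases before a RefSeq start (GRCm38.p6, the build the submitters' processing notes name without its patch), written 5′ to 3′ on the gene's strand. Capitals mark the sterol regulatory element TCACNCCAC in Hmgcs1, the E-box CACGTG in Insig1 and Abca1, the element GTTACTNNCGGTCA, read here on the opposite strand, in Abca1 and Srebf1, and the CCAAT box, also on the opposite strand, in Ebp. The positions are chr13:119690101-119690350 (plus strand), chr5:28071162-28071411 (plus), chr4:53159896-53160145 (minus), chr11:60210472-60210721 (minus) and chrX:8193513-8193762 (minus).
Hmgcs1: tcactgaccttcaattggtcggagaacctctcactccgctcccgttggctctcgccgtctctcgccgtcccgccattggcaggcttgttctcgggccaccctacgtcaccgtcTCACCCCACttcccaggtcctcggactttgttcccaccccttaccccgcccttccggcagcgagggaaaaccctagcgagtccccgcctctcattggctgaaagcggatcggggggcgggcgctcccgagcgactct
Insig1: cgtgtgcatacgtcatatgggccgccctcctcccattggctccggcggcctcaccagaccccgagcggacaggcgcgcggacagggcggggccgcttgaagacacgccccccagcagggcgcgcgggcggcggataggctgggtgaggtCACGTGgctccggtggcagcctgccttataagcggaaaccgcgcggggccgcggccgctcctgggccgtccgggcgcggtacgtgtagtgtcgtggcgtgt
Abca1: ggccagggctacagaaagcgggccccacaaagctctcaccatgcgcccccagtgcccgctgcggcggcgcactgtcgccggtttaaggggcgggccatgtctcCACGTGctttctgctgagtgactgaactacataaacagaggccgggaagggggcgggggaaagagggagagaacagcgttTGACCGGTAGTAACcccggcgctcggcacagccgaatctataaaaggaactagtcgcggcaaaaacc
Srebf1: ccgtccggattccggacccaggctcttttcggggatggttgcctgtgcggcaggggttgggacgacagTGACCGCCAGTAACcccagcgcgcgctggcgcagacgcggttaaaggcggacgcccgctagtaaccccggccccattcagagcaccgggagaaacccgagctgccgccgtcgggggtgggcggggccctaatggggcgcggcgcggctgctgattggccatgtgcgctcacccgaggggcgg
Ebp: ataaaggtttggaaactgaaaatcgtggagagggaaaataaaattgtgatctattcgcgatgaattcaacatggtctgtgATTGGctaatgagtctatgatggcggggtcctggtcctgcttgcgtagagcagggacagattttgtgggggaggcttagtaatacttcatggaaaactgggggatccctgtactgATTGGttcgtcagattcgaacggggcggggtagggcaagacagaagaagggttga

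The RefSeq table held 37 promoters of 27 of the 34 genes; Fdft1, Sqle, Fdps, Npc1, Lpl, Stard4 and Abcg1 were not matched. Motifs were searched on both strands from 250 bases before to 50 bases after each start. The sterol regulatory element, the site of SREBP, lay in 1 of the 37 (Hmgcs1, at -137 from the start), 2.70% against 1.24% of 32851 promoters of all genes. E-boxes lay in 18.9% against 7.15%, in Dhcr7, Hsd17b7, Sc5d, Insig1, Scap and Abca1. Overlapping promoters of Scap hold the same E-box, at 28 and -40 from their starts, and each promoter was counted.

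The CCAAT box CCAAT, bound by NF-Y, lay in 62.2% of these promoters against 37.4% of all. It was in 80.0% of the 20 synthesis promoters (17 genes) and in 28.6% of the 7 for uptake and export (5 genes). A gene with several starts, such as Apoe, was counted once per start. The GC box GGGCGG, bound by Sp1, lay in 73.0% against 35.7%, and the median GC content was 61.3% against 52.7%. A direct repeat of GGTCA with 4 bases between its copies was in 0 of the 37 and 0.0457% of all, and one with 5 bases between, added after the values were seen, in 0 and 0.0761%. The element GTTACTNNCGGTCA was searched after the Abca1 and Srebf1 sequences had been read; it lay in these 2 and in 3 of the 32851 promoters in all, 0.00913%. These matches describe letters only.

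The peak lists differ in length. The neonatal lists hold 9097, 31189 and 7353 peaks and the adult lists 72278, 72661 and 77002, and neonatal replicate 2 stands apart from the other neonatal libraries by its longer list. The files give no read totals, and the number of libraries limits the precision. Of 7 OPC markers (Pdgfra, Cspg4, Olig1, Olig2, Sox10, Ptprz1, Gpr17), 7, 7 and 7 had a promoter peak in the neonatal and 7, 6 and 6 in the adult libraries. Of 7 markers of mature oligodendrocytes, 1, 1 and 1 (Mbp) had one in the neonatal and 7, 7 and 7 in the adult libraries. Their promoter values in the authors' deposited table were 2.90 to 7.52 on the log2 scale, adult higher. A promoter site was listed in the authors' deposited table for 5 of the OPC markers, 4 above 0 and 1 below, from -1.23 to 3.61. Counting only the 7353 strongest peaks of each library, a promoter peak was at 7, 7 and 7 OPC markers against 4, 4 and 4, and at 1, 1 and 1 mature oligodendrocyte markers against 5, 6 and 5. Astrocyte markers had peaks at 2, 4 and 1 of 6 promoters against 3, 1 and 4, and neuronal markers at 0, 3 and 1 of 5 against 4, 2 and 2. Fibroblast or pericyte markers had them at 0, 3 and 0 of 5 against 1, 2 and 1, microglial markers at 0 of 6 in the neonatal and 1 (Cx3cr1) in each adult library, and endothelial markers at 0 of 5 and 1 (Pecam1). The part of mature oligodendrocytes, whose markers moved with age, in any difference below was not tested. In bulk chromatin a larger share of cells carrying the mark and more of it per cell cannot be told apart.

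Neonatal against adult was the comparison of the study. More of the cholesterol genes had an H4K8ac peak at their promoter in adult OPCs, as did most genes. A promoter peak, one the authors annotated to within 3000 bp of a start of the gene, was present at 12, 31 and 10 of the 34 genes in the neonatal libraries and at 31, 32 and 32 in the adult ones, 17.7 ± 11.6 against 31.7 ± 0.577 (mean ± SD, n = 3 each). Neonatal replicate 2 reached the count of the lowest adult library. Without it the mean difference was 20.7 genes in place of 14.0. Over all 14223 coding genes the share with a promoter peak was 40.0%, 80.9% and 35.7% in the neonatal and 85.6%, 82.7% and 83.9% in the adult lists, and over all coding genes each neonatal share was below each adult share.

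Of the 20 synthesis genes, 6, 18 and 6 had a promoter peak in the neonatal and 19, 20 and 20 in the adult libraries. Within them the 8 genes from acetyl-CoA to farnesyl and geranylgeranyl diphosphate gave 3, 8 and 1 against 8, 8 and 8, and the 12 from squalene to cholesterol gave 3, 10 and 5 against 11, 12 and 12. The 5 sensing genes were marked at both ages, with 5, 5 and 3 against 5, 5 and 5. Among the 9 uptake, storage and export genes, 1, 8 and 1 had a promoter peak in the neonatal libraries and 7, 7 and 7 in the adult ones. The difference between synthesis and uptake and export was not tested.

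**Figure D1:**
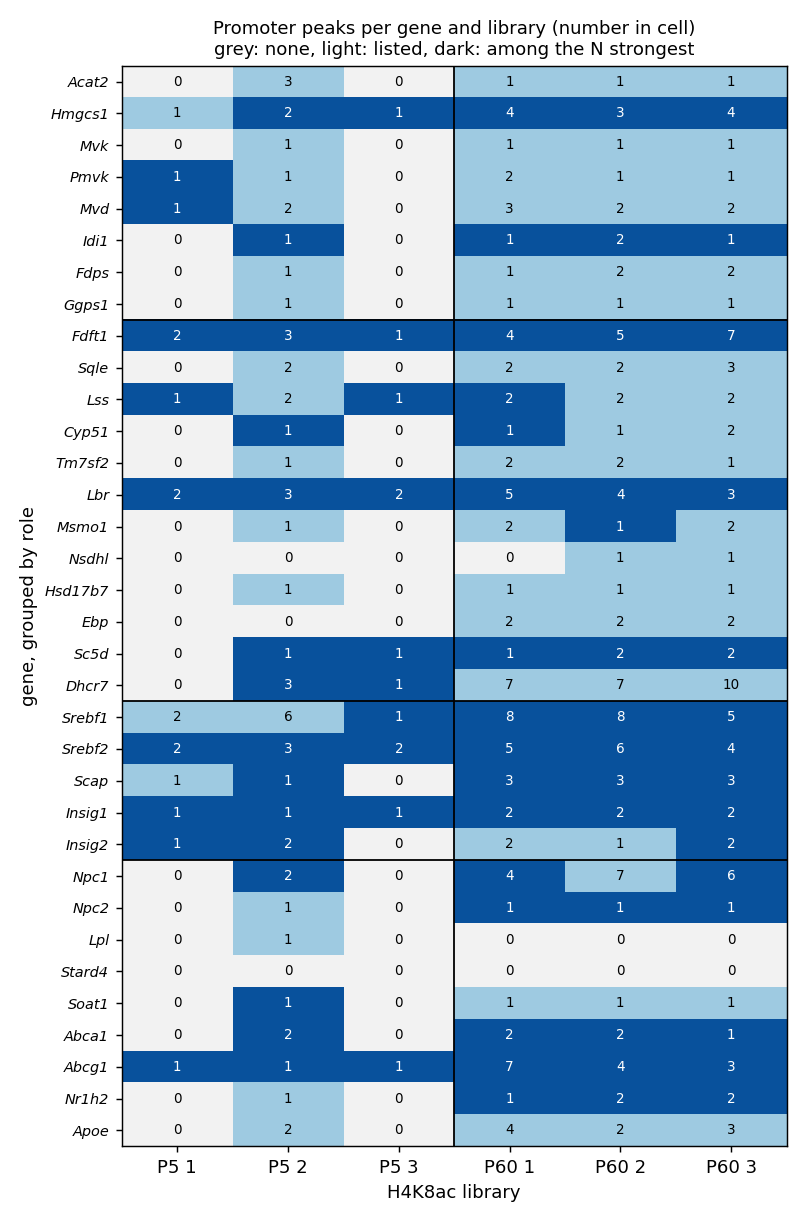
Number of promoter peaks of each of the 34 genes (rows, in 4 blocks by role: synthesis up to the diphosphates, squalene to cholesterol, sensing, and uptake, storage and export) in each H4K8ac library (columns; P5 is neonatal, P60 adult). Dark cells hold a peak among the 7353 strongest of the library; the 5 sensing genes are filled in nearly every library, while 16 other rows are filled in neonatal replicate 2 and the adult libraries and empty in neonatal replicates 1 and 3.

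A group of 8 genes had a promoter peak in all 6 libraries: Hmgcs1, Fdft1, Lss, Lbr, Srebf1, Srebf2, Insig1 and Abcg1, 23.5% of the 34 against 26.5% of all coding genes. In 17 of the 33 listed genes a promoter peak was present in all 3 adult libraries and in at most 1 neonatal library, 51.5% against 33.8% of all coding genes. For 16 of the 17 that 1 library was neonatal replicate 2. Ebp alone had one in 3 adult and 0 neonatal libraries, 1 of 33 against 7.19% of all coding genes. Without neonatal replicate 2, 17 genes had this pattern, and without adult replicate 1 there were 2; the same counts over all coding genes were not made. With all 6 libraries, a promoter peak in 1 neonatal and 3 adult libraries was found for 47.1% of the 34 genes and 26.6% of all coding genes. The reverse, 3 neonatal and 0 adult libraries, held for 0 of 33 against 0.211%.

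To compare lists of equal length, only the 7353 peaks with the highest −log10 q were kept in each, 7353 being the length of the shortest list. This left neonatal replicate 3 whole and shortened the adult lists most. The full lists also differ in make-up. Promoter peaks were 85.2%, 67.5% and 88.8% of the neonatal and 43.9%, 43.1% and 40.4% of the adult lists. Among the 7353 strongest peaks, the age difference in the number of synthesis genes with a promoter peak was no longer seen. Of the 20, 5, 7 and 6 had a promoter peak among these in the neonatal libraries and 7, 6 and 5 in the adult ones. Sensing genes gave 3, 4 and 3 against 4, 4 and 5 of 5. Uptake and export genes gave 1, 4 and 1 against 5, 4 and 5 of 9. All coding genes gave 35.0%, 41.3% and 35.7% against 40.1%, 35.0% and 36.4%.

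At this equal length 6 of 33 genes (Idi1, Srebf1, Scap, Npc2, Abca1 and Nr1h2) had a strong promoter peak in all 3 adult and at most 1 neonatal library, 18.2% against 5.76% of all coding genes. The reverse pattern held for 0 against 4.51%. One of the 6 is a synthesis gene, 2 are sensing genes and 3 belong to uptake and export.

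**Figure D2:**
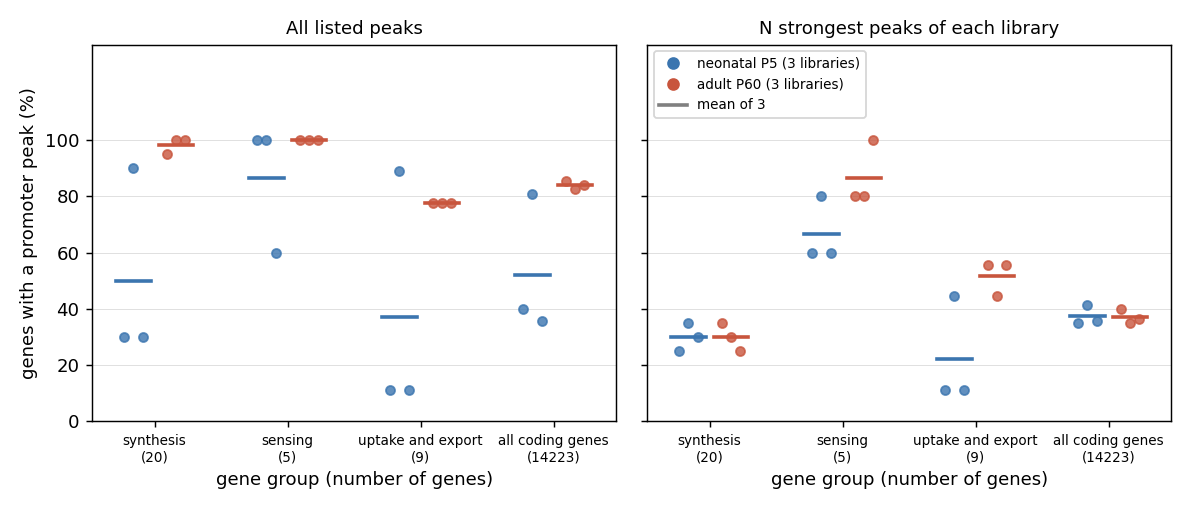
Percentage of genes with a promoter peak in each library (points, bars at the mean of 3) for the 3 groups of cholesterol genes and all 14223 coding genes, with all listed peaks (left) and with the 7353 strongest of each library (right). Synthesis genes stand at 30.0% in neonatal replicates 1 and 3, at 90.0% in neonatal replicate 2 and at 95.0% or more in adults on the left, and span 25% to 35% at both ages on the right.

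The mark at each promoter was measured as the number of bases covered by peaks, of any assignment, within 3000 bp of the outermost listed start of the gene. In 30 of the 33 genes every adult library exceeded every neonatal one, 90.9% against 66.8% of all coding genes; the exceptions were Nsdhl, Dhcr7 and Lpl. None of the 33 lay below in all adult libraries, against 0.211%. For these 30 the exact two-sided permutation test gave p = 0.1, the smallest that 3 against 3 libraries allow (adjusted p = 0.149 by Benjamini-Hochberg over all coding genes), so no gene passed a threshold of 0.05. With only the 7353 strongest peaks of each library, adult exceeded neonatal without overlap in 11 of 33 genes, 33.3% against 24.4% of all coding genes. Adult lay below in 0, against 2.78%. Of the 11, 6 are synthesis genes (Hmgcs1, Idi1, Ggps1, Fdft1, Lbr and Sc5d), 30% of the 20. Scap is a sensing gene, and 4 (Npc2, Abca1, Abcg1 and Nr1h2) belong to uptake and export.

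Acat2, Hmgcs1 and Mvk code for the thiolase, synthase and kinase of the first steps of the mevalonate route. Acat2 had 0, 796 and 0 covered bases in the neonatal libraries and 867, 1213 and 1220 in the adult ones. Hmgcs1, whose start lies at position 119690379 of chromosome 13, had 264, 1198 and 284 against 1666, 1891 and 2217. Mvk had 0, 561 and 155 against 953, 624 and 973, and its window holds a peak that the authors assigned to Mmab, a neighbour that starts 0.191 kb away. In all 3 the adult libraries were higher without overlap, and neonatal replicate 2 was the highest of the neonatal libraries. At equal list length (7353 peaks each) the adult minus neonatal mean was -34.3 bases for Mvk and 0 for Acat2.

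Idi1, the isomerase that supplies the allylic unit, had 0, 373 and 0 covered bases against 1014, 1193 and 1196. Fdps, the farnesyl diphosphate synthase, had 0, 234 and 0 against 361, 1066 and 1089, in a window shared with Gm43738. Ggps1, which makes geranylgeranyl diphosphate for protein prenylation, had 255, 1086 and 449 against 1797, 1715 and 1772, in a window shared with Arid4b. The groups did not overlap in these 3 genes, though adult replicate 1 of Fdps lay close to neonatal replicate 2. Pmvk and Mvd, the remaining mevalonate enzymes, covered at most 518 bases in a neonatal library and 883 to 1851 in the adult ones. With the 7353 strongest peaks their adult minus neonatal means were -97.7 and -58.0 bases.

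After squalene, Sqle, the epoxidase, had 0, 495 and 0 covered bases against 746, 679 and 1098. Cyp51, the lanosterol demethylase, had 0, 932 and 0 against 1792, 1464 and 2104. Tm7sf2, a sterol reductase, had 0, 333 and 0 against 519, 749 and 1316. All were higher in the adult libraries, and their only neonatal values above 0 came from replicate 2.

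Msmo1, which removes the methyl groups at carbon 4, had 0, 177 and 0 against 735, 266 and 703, and Hsd17b7, of the same complex, had 0, 205 and 0 against 567, 662 and 891. Ebp, the sterol isomerase whose promoter is printed above, had 0, 0 and 0 against 1094, 453 and 956. It was the only gene with no covered base in the neonatal libraries and some in each adult one. Nsdhl, also on the X chromosome, had 0, 0 and 0 against 0, 159 and 531, so the groups touched (p = 0.4, exact permutation test). Peaks assigned to neighbours, Cetn2 and 3110045C21Rik, also lay in the windows of Nsdhl and Hsd17b7.

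Around its outermost start Dhcr7, the last reductase of the route, had 0, 1184 and 218 covered bases against 817, 926 and 1189. There the ages overlapped (exact permutation test, p = 0.3). Its window also held peaks assigned to Nadsyn1, and with the 7353 strongest peaks the adult minus neonatal mean was -72.7 bases. The strongest Dhcr7 promoter peak lay outside this window, 6673 bp inside the gene in neonatal replicate 2 and 6731, 6725 and 6737 bp in the adult libraries. In neonatal replicate 3 it lay at 135 bp. All promoter peaks assigned to Dhcr7 spanned 0, 1055 and 218 bases in the neonatal and 2046, 2018 and 4810 in the adult libraries, without overlap. Fdft1, Lss, Lbr and Sc5d, which span squalene synthesis, its closure to lanosterol and later steps, were covered by 0 to 865 bases in neonatal and 628 to 2408 in adult libraries, without overlap in any of the 4. Lbr, the lamin B receptor with sterol reductase activity, was among the 7353 strongest at both ages in every library.

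Srebf2, the factor that mainly drives synthesis, had 793, 1845 and 327 covered bases against 2476, 2742 and 3151. Insig1, the retention protein, had 282, 1355 and 553 against 2326, 1973 and 3153 in a window shared with Gm26608; the promoter peaks assigned to Insig1 itself spanned 282, 425 and 266 bases in the neonatal and 951, 966 and 1733 in the adult libraries. The strongest promoter peak of Insig1 ranked at the 93.8, 98.3 and 94.6 percentile of coding genes with a promoter peak in the adult lists, by −log10 q. In the neonatal lists it ranked at the 86.1, 92.2 and 44.7 percentile. Scap, the escort of SREBP, had 204, 514 and 0 against 1640, 1386 and 2573, and Insig2 had 168, 748 and 0 against 1211, 1475 and 1512. None of these 4 overlapped between the ages. The median percentile in the adult lists was 76.1, 83.5 and 89.9 for sensing genes, 44.1, 41.9 and 42.8 for synthesis genes and 59.4, 62.7 and 69.7 for uptake and export, with 5, 20 (19 in adult replicate 1) and 7 genes behind them. In the neonatal lists it was 35.0, 69.3 and 44.7 for sensing (5, 5 and 3 genes) and 28.6, 35.1 and 25.7 for synthesis (6, 18 and 6). For uptake and export it was 85.3, 45.3 and 29.9 there (1, 8 and 1 genes).

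Srebf1 is transcribed from alternative starts that give SREBP-1a and SREBP-1c, the latter an LXR target. Around the outermost start it had 241, 1158 and 0 covered bases in the neonatal libraries against 1980, 2354 and 2210 in the adult ones. Its strongest promoter peak lay elsewhere, 11692 and 12373 bp inside the gene in neonatal replicates 2 and 3 and 11618, 11621 and 11573 bp in the adult libraries; in neonatal replicate 1 it lay at 2143 bp. The inner position is near the start printed above. In the authors' deposited table a site there, chr11:60210122-60210521, was higher in adult cells by 2.00 on the log2 scale (adjusted p = 8.61e-06), against 1.37 at the outermost start (adjusted p = 0.00743). Further Srebf1 promoter sites in the authors' deposited table, 2107 and 15007 bp inside the gene, gave 1.32 (adjusted p = 0.00574) and 3.00 (adjusted p = 0.000884). Which start gives which form was not determined here. The difference between the starts was not tested.

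Npc1 and Npc2 release cholesterol from lysosomes after uptake. Npc1 had 0, 522 and 0 covered bases against 3236, 3202 and 3680, the largest adult mean of the 33 genes, 3373 ± 267 (SD, n = 3). With the 7353 strongest peaks its adult minus neonatal mean was 1340 bases, and the ages overlapped (exact permutation test, p = 0.4). Npc2 had 188, 508 and 0 against 1094, 1177 and 1448, in a window shared with Isca2. Soat1, which esterifies cholesterol for storage, had 0, 268 and 0 against 547, 298 and 497, and here adult replicate 2 exceeded neonatal replicate 2 by little; with the 7353 strongest peaks the adult minus neonatal mean was -89.3 bases.

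Abca1, which loads cholesterol onto lipoproteins, had 0, 813 and 0 covered bases against 1620, 1681 and 2022. Abcg1, a second exporter, had 430, 1386 and 336 against 2363, 2611 and 3070, in a window shared with Gm25447. Apoe, the main apolipoprotein of the brain, had 0, 1183 and 0 against 2807, 3076 and 3041, with some of its window peaks assigned to Tomm40. The groups were apart in all 3. Nr1h2, which codes for the LXR beta receptor, had 0, 236 and 0 against 899, 806 and 976.

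Lpl, the lipase that frees fatty acids from lipoproteins, went the other way, with 0, 211 and 0 covered bases against 0, 0 and 0. It rested on 1 peak of neonatal replicate 2 (exact permutation test, p = 1). Stard4 had no peak of any kind in the 6 libraries. Neither gene had a peak assigned to it in an adult list.

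**Figure D3:**
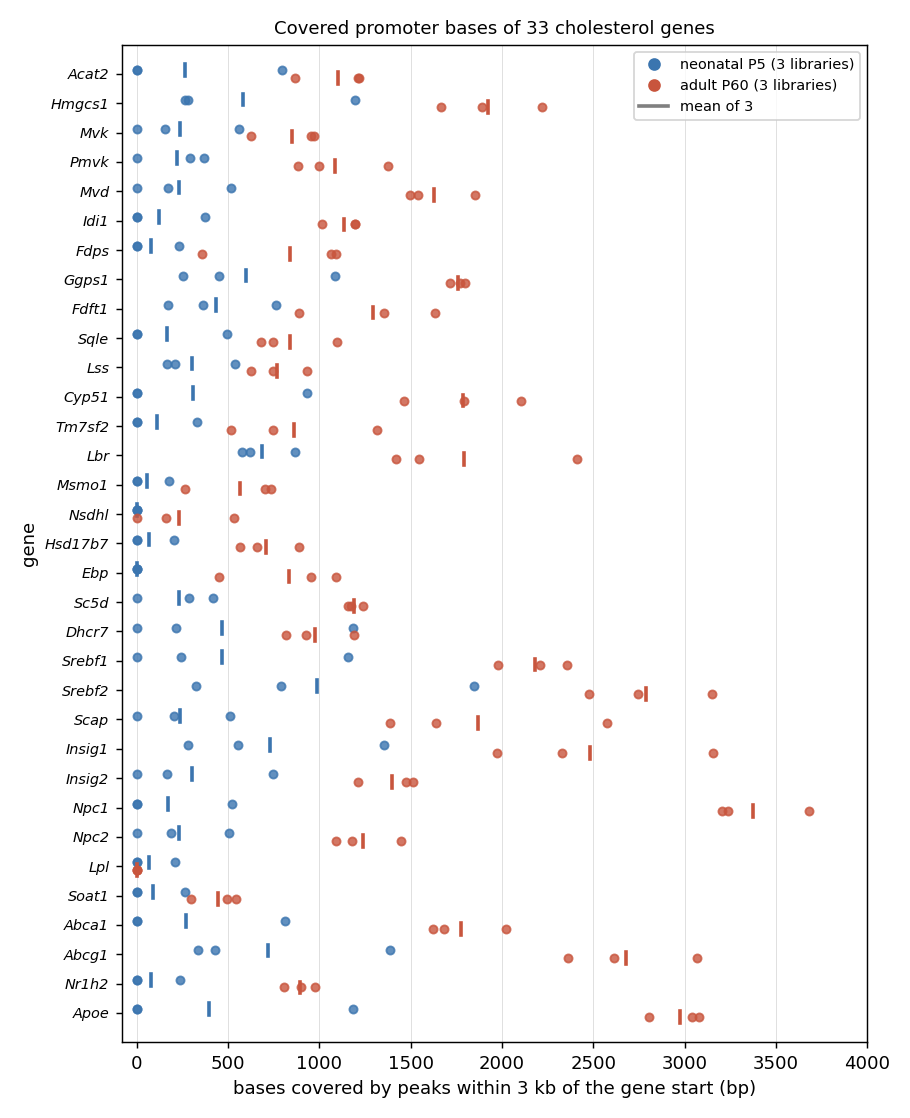
Bases covered by peaks within 3 kb of the gene start (x axis, bp) for 33 genes (y axis); points are libraries, bars the mean of 3, blue neonatal and red adult. Red and blue points are apart for every gene except Nsdhl, Dhcr7 and Lpl, and Npc1 reaches the highest adult values, 3202 to 3680 bp.

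A separate measure of the ages came from the authors' deposited table of differential sites, which holds 400 bp sites with an adjusted p under 0.05 and no values per library; positive values are read as higher in adult cells. Sites in the authors' deposited table numbered 86 over 28 of the genes, and 86 were above 0; over all genes 99.4% of the sites in the authors' deposited table were. A promoter site above 0 was listed in the authors' deposited table for 28 of 33 genes, 84.8% against 67.7% of all coding genes, and one below 0 for 0 against 0.696%. The median over the 28 genes was 1.65 on the log2 scale in the authors' deposited table, taking the promoter site with the smallest p of each gene, beside 1.69 over all coding genes with a listed promoter site. By group the medians in the authors' deposited table were 1.60 for synthesis, 1.75 for sensing and 2.12 for uptake and export. Sqle, Tm7sf2, Msmo1, Hsd17b7 and Lpl, like Stard4, had no site listed in the authors' deposited table.

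Taking the promoter site with the smallest p of each gene, the highest values in the authors' deposited table were 5.62 at Scap, 4.39 at Dhcr7, 2.93 at Abcg1, 2.32 at Npc1 and 2.30 at Fdps, all on the log2 scale. Several of these sites lay away from the gene's outermost start. In the authors' deposited table the Dhcr7 site was 15062 bp inside the gene, the Abcg1 site 56175 bp and the Scap site 1924 bp. At a site within 1000 bp of the start the authors' deposited table gave 1.14 for Dhcr7, 1.58 for Abcg1 and 1.74 for Scap. Among the sites with the smallest p, the lowest values in the authors' deposited table were 1.16 at Soat1, 1.19 at Cyp51, 1.23 at Ggps1, 1.29 at Mvk and 1.49 at Hmgcs1. Over the 27 genes with a site that near the start, the authors' deposited table ranged from 1.14 to 2.30 with a median of 1.58, and the group medians were 1.55 for synthesis, 1.54 for sensing and 1.58 for uptake and export.

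**Figure D4:**
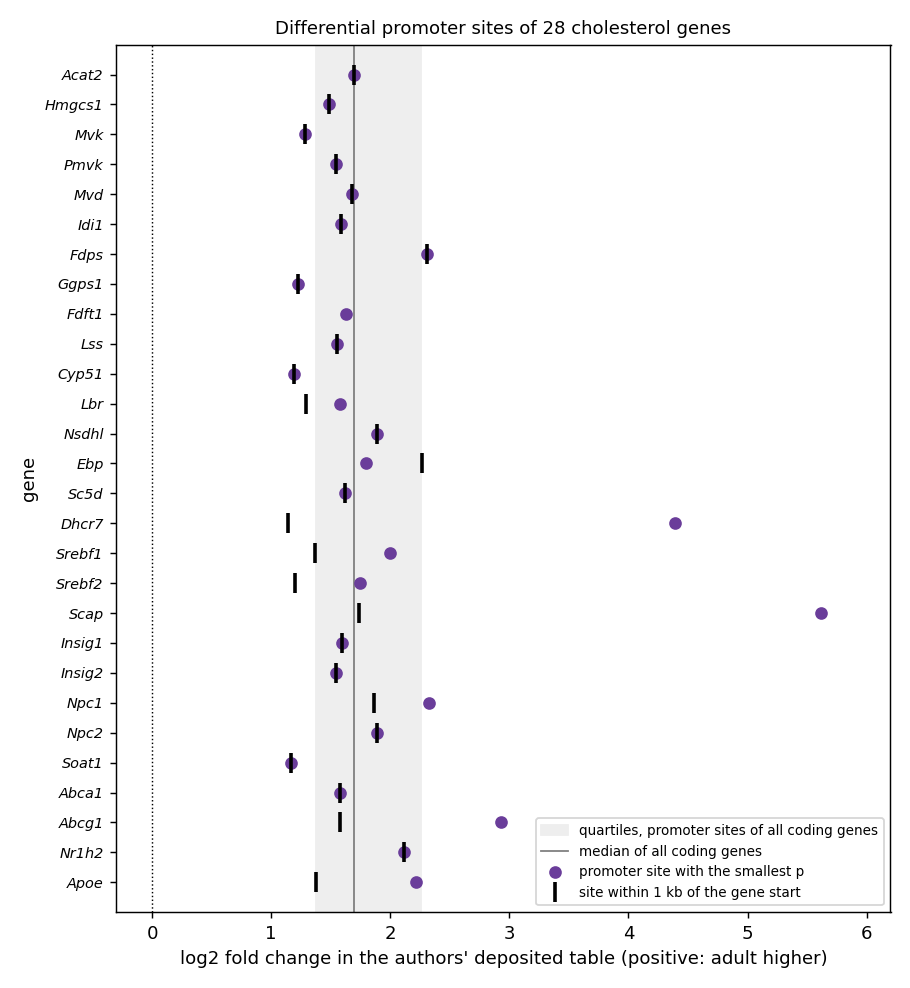
Difference between the ages (x axis, log2 scale, positive is adult higher) from the authors' deposited table for the promoter site with the smallest p of 28 genes (dots) and for the site within 1 kb of the gene start (ticks), with the median (line) and quartiles (band) of all coding genes. Ticks run from 1.14 to 2.30, and the dots of Scap and Dhcr7 lie far to their right at 5.62 and 4.39.

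Peaks outside promoters were mostly in the adult lists and at a few genes. The genes had 3, 6 and 1 such peaks in the neonatal and 47, 57 and 60 in the adult libraries, in adults 1.38, 1.68 and 1.76 per gene against 1.63, 1.64 and 1.83 over all coding genes. Of the 33 listed genes 21 had none in any adult library, 63.6% against 58.8% of all coding genes. Mvk, the mevalonate kinase, had 1, 1 and 1 against 25, 22 and 22, and 162 of the 14223 coding genes had more over the 3 adult libraries. Abcg1 had 1, 3 and 0 against 12, 18 and 20, with 283 genes above it. Npc1 had 0, 0 and 0 against 4, 4 and 4, Abca1 0, 0 and 0 against 2, 3 and 4, Scap 0, 0 and 0 against 1, 2 and 4, and Lbr 1, 1 and 0 against 2, 3 and 2. The synthesis total of 27, 26 and 26 in the adult libraries was thus mostly Mvk.

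The Mvk peaks lay beyond the gene's end, almost all annotated as intergenic, over 40.7, 40.5 and 41.3 kb of chromosome 5 in the adult libraries, of which peaks covered 15.4, 18.9 and 22.3 kb. The first adult library placed them at chr5:114460881-114501557. In the neonatal libraries a single narrow peak of 217, 210 and 210 bp lay 23.7, 23.5 and 23.5 kb from the start. Peaks of the adult lists went on past this stretch with 12, 13 and 15 assigned to Gm13790 and none there in the neonatal lists, and the next coding gene, Fam222a, lies 107.66 kb from Mvk. Assignment to Mvk therefore rests on distance alone. Through the shared peaks, 18 sites of the authors' deposited table were assigned to Mvk here, with the highest, 6.36 on the log2 scale, at chr5:114499303-114499702 and 1.29 at the promoter.

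**Figure D5:**
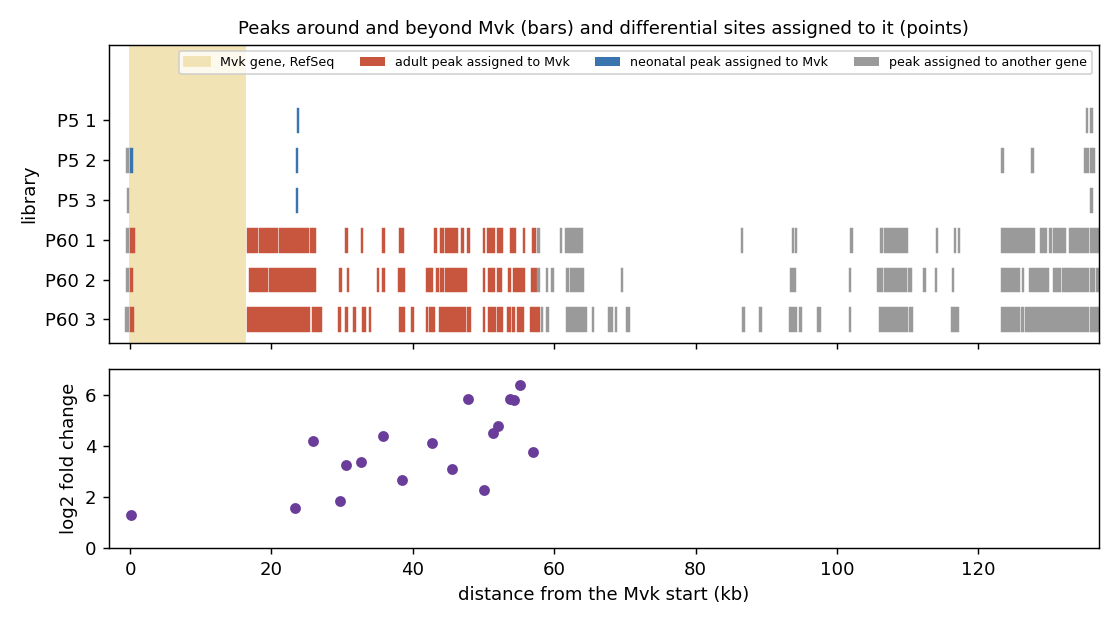
Peaks of each library (bars, top) and log2 fold changes from the authors' deposited table of the sites assigned to Mvk through shared peaks (points, bottom) by distance from the Mvk start in kb. Adult libraries hold a run of peaks from the end of the gene (shaded) onward; in the stretch assigned to Mvk each neonatal library holds 1 peak, and the points reach 6.36 beyond 50 kb.

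Abcg1 had other peaks on both sides of its start. In neonatal replicates 1 and 2 these 1 and 3 peaks lay upstream, between -23.5 and -20.7 kb. In the adult libraries they ran, relative to the start, from -22.3, -26.3 and -27.2 kb to 59.0, 33.5 and 62.3 kb, with 4, 14 and 11 intergenic. By the same assignment 10 sites of the authors' deposited table belonged to Abcg1, from 1.58 to 3.27 on the log2 scale. Npc1, with 9 sites in the authors' deposited table, was marked at introns and exons in each adult library and nowhere outside its promoter in the neonatal ones.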

How the data were processed

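ChIP-seq of H4K8ac in sorted OPCs was analysed from 6 peak lists and 1 table of differential sites; Trim Galore, Bowtie2 2.4.5, SAMtools, deepTools, MACS2, DiffBind, ChIPseeker and the build GRCm38 are named, without roles or settings, in the submitters' processing notes. For every peak the authors' lists give, per the file headers, a score, a fold enrichment (a linear ratio), −log10 of its p and q value, and the nearest gene with its class. Peaks were listed per library, with q under 0.05 in every list. The differential table holds, per the file headers, the authors' log2 fold change of each site with its p-value, raw and adjusted; it names no direction, and its positive sites overlapped 85.0% to 96.7% by adult library and 10.3% to 27.8% by neonatal library, so positive was read as adult higher. Each site took the gene and class of the deposited peak sharing most bases.

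Python 3.11.15, numpy 2.4.6, pandas 2.3.3 and matplotlib 3.10.9 were used. Genes were protein-coding by RefSeq and named in a list, leaving out 25 names with more than 1 identifier. Covered bases were counted within 3000 bp of the outermost listed start, which lay within 1000 bp of the RefSeq gene end for 28 of 33 genes. The ages were compared by exact two-sided permutation over the 20 arrangements of 3 against 3 libraries (smallest p = 0.1) with Benjamini-Hochberg adjustment over 14223 genes; the calculation was tested on simulated data. Depth in reads is not in the files used here. Alternatives were q under 0.005, the 7353 strongest peaks, other windows, leaving out each library and, added after the values were seen, the promoter site nearest the start and a second spacing of the direct repeat.

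The genes, lists and tests were chosen with earlier results of these data known. Values per library are given for genes with a promoter peak (in all lists or at equal length) in 3 libraries of 1 age and at most 1 of the other, the 5 highest and 5 lowest promoter log2 values, any gene with a site below 0, the 5 genes with most other peaks in adults (Lbr ties with Scap) and genes with no promoter peak; the other genes are given as ranges. Where replicates come from is known only from the word biological in the labels. The permutation p-values place the observed split of these libraries among its possible arrangements. They apply to these samples only.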

Additional observations from a re-analysis of the deposited data

How the results depend on the processing

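Between the ages, the direction of the promoter counts and of the count of genes whose adult libraries all exceeded the neonatal ones was kept with q under 0.005, a window of 1000 bp and any peak within 3000 bp of the start. With lists limited to their 7353 strongest peaks, the adult minus neonatal difference in synthesis genes with a promoter peak fell to 0. Non-overlapping genes then numbered 11 in place of 30. A promoter peak in 3 adult and 0 neonatal libraries was found for 2 genes (Npc2 and Nr1h2) in place of 1 (Ebp). These 2 were a larger share of the cholesterol genes than genes with the same pattern were of all coding genes. The difference in other peaks was 2.00 against 51.3 in all genes. It was 1.00 against 24.7 in synthesis and 1.00 against 22.7 in uptake and export. Covered bases then reversed, as adult minus neonatal means, for Mvk (-34.3), Pmvk (-97.7), Mvd (-58.0), Dhcr7 (-72.7) and Soat1 (-89.3). These values rest on fewer peaks by construction. Requiring that at least 50% of the window be covered left 1 gene of 30, a count not made over all coding genes. With q under 0.005 the synthesis difference in other peaks moved to 23.7.

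Leaving out 1 library at a time gave promoter differences of 10.2 to 20.7 genes, 7.67 to 13.7 for synthesis and 2.5 to 6 for uptake and export, non-overlapping counts of 30 to 31, counts of 3 adult and 0 neonatal of 1 to 17, other-peak differences of 48.7 to 55.2, and equal-length counts of 6 to 8. The same counts over all coding genes were not made with a library left out, so these ranges describe the cholesterol genes without a background.

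Replicate numbers are shared by the ages but come from different animals, and deviations of same-numbered libraries correlated at 0.0164, -0.128 and -0.108 across 14223 genes, so the numbers were not taken as pairs. With the replicate number as a block, 30 genes were higher in the adult library of each of 3 pairs, a count not made over all coding genes. The smallest p of the sign-flip test was 0.25.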

Other observations

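Among 32 further genes of cholesterol metabolism, 17, 26 and 11 had a promoter peak in the neonatal libraries and 29, 29 and 29 in the adult ones. Over all coding genes the shares were 40.0%, 80.9% and 35.7% against 85.6%, 82.7% and 83.9%, beside 53.1%, 81.25% and 34.4% against 90.6% in each adult library here. Abca7, Cyp27a1 and Lcat code for a lipid transporter, a sterol hydroxylase and the enzyme that esterifies cholesterol in lipoproteins. These 3 had a promoter peak in 3 adult and 0 neonatal libraries, 9.38% of the 32 beside 7.19% of all coding genes. The authors' deposited table lists a value above 0 at the promoter for 25 of the 32, beside 67.7% of all coding genes, and one below 0 for 0, with a median of 2.02 on the log2 scale beside 1.69 over all coding genes; the values were 3.65 for Abca7, 3.38 for Lcat and 2.38 for Cyp27a1. Gramd1c, Ch25h and Soat2 had no promoter peak in any library.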
